A study of Pyrus pyrifolia with 12 samples.

Results

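Vacuolar-processing enzymes (VPEs, also called legumains) are cysteine proteases that cut after asparagine and, more weakly, aspartate. They are made as inactive precursors, activate themselves in the acid vacuole, and there mature storage proteins and other proteases. In leaves of tobacco and Arabidopsis a VPE also acts as a caspase-1-like protease when the vacuole collapses during cell death. The account below concerns gene30075 and gene1298, which were chosen by their deposited name, Vacuolar-processing enzyme, and by their counts and FPKM, which put both among the most abundant transcripts of fruit skin. Names in this table are those of the best Swiss-Prot hit, so a name describes likeness to a known protein of another species. The genes are 2 of 43732 in the table and 2 of 8 genes that carry this name. Their levels and ranks are therefore descriptions with no test. Differences between varieties and the ratio of the genes were not part of the rule of choice. Earlier results of these data were known when the choice was made.

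RNA of mature, untreated fruit skin came from 4 varieties of Pyrus pyrifolia, the Asian pear, with 3 libraries each and 12 in all. Akibae was harvested 120 days after full bloom, Nijisseiki at 135 days, and SuCui NO.1 and CuiYu both at 105 days, all from orchards in Yizheng, Jiangsu. No group carried a transgene or treatment, and no variety served as a control. The study concerned russet skin, and the effect of variety cannot be told apart from that of harvest day, other than for the pair of SuCui NO.1 with CuiYu. The labels speak of biological replicates without naming trees, so p-values measure the spread between these samples.

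Libraries held 11981445 to 15136559 counts, and the 100 most abundant genes took 12.6% to 21.5% of them. Of 26 genes fixed as cuticle markers of the skin epidermis, such as ECERIFERUM 1 and HOTHEAD, 23 had reads. Their summed level was highest in CuiYu, at 764 to 790 CPM, followed by SuCui NO.1 at 214 to 411 CPM. It was 48.5 to 333 CPM in Nijisseiki and 68.3 to 105.6 CPM in Akibae. Markers of xylem and stone cells summed to 0.885 to 7.01 CPM over all libraries, with 11 of 25 genes at 0, and 2 phloem markers to 0.0723 to 40.5 CPM. Seed markers, mostly oleosins and vicilins, summed to 8.32 to 177 CPM with 12 of 23 genes at 0, and were highest in CuiYu (60.6 to 177). In whole skin, fewer cells of a type and less RNA per cell cannot be told apart. The part of these marker levels in the results below was not tested. Nijisseiki replicate 1 stood apart by its effect on the number of calls: without it, the number of genes called between SuCui NO.1 and CuiYu went from 4587 to 5896, and results are given with and without it where it changed them. The spread within a variety was nonetheless widest in SuCui NO.1. The median SD over all genes tested was 0.44 there on the log2 scale, 0.39 in Nijisseiki, 0.30 in Akibae and 0.24 in CuiYu.

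The 8 VPE genes of the table fell into a pair that was read abundantly and 6 genes with almost no reads. Gene30075 lies on the minus strand of chromosome 8 from 14256384 to 14260088, and gene1298 on the plus strand of chromosome 15 from 3976940 to 3980604. These are coordinates of a build not given in the sources used here. Their annotated transcripts are alike in length, at 1796 and 1827 bases, within spans of 3705 and 3665 bases, and both carry the Pfam domain of the C13 peptidases. Over the 12 libraries gene30075 had 649416 reads and gene1298 had 358370. The other 6 genes had 16 reads between them, so the pair held at least 99.99% of the VPE reads of every library.

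Of the 6 remaining genes, 3 lie on chromosome 4 within 46.5 kb of each other. These are gene20142 with 13 reads, 7 of them in Nijisseiki replicate 3, gene20145 with 2 reads and gene20143 with 0. Gene26792, on chromosome 9, whose second name is Proteinase B, had 1 read. Gene36635, on chromosome 14, whose second name is Legumain-like proteinase, had 0 reads, as did gene26566 on chromosome 17, which has no annotated C13 domain. A total of 0 reads over 12 libraries allows up to 0.0188 CPM, counting error only. None of the 6 genes passed the filter on low counts, so they were not tested. Whether reads of these copies were lost, or assigned to another copy under a counting rule not given in the sources used here, was not tested.

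The chromosomal surroundings of the abundant genes resembled each other on one side. Among the 10 genes downstream of each, 8 near gene30075 and 6 near gene1298 carried a protein name or a set of Pfam domains found at both loci. These were genes with a DUF1639 domain, a Core-2/I-Branching domain, a DUF866 domain, paired DUF239 and DUF4409 domains, EARLY FLOWERING 3, a clock regulator, and a gene with KH and 3'-5' exonuclease domains. Upstream, 0 of 10 genes were shared at either locus. No neighbour came near the level of the VPE genes. The median of the 20 listed neighbours, tested or not, was 0.528 FPKM near gene30075 and 20.8 FPKM near gene1298. The median of 7.01 FPKM over all genes tested leaves out genes that failed the filter on low counts. It is therefore not a like measure for the neighbours, several of which had 0 reads near gene30075. The highest neighbour reached a mean of 90.5 FPKM (fragments scaled for transcript length and library size, the authors' unit) near gene30075 and 102.3 FPKM near gene1298, against 2189 and 1188 FPKM for the VPE genes themselves.

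**Figure D1:**
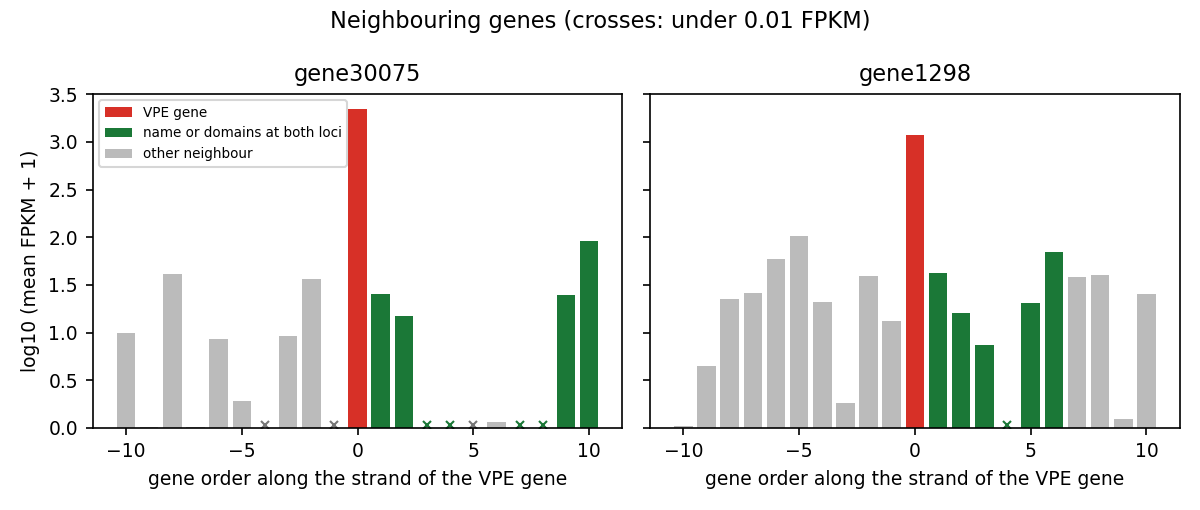
Mean FPKM over the 12 libraries, as log10 (mean FPKM + 1), of 10 genes on each side of gene30075 (left) and gene1298 (right), in their order along the strand of the VPE gene. Green bars and crosses mark genes whose name or Pfam domains occur at both loci, 8 and 6 of them, all downstream, and the red VPE bars stand above every neighbour.

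Gene30075 was the more abundant of the pair in every library. In Akibae it stood at 3952, 2118 and 4311 CPM in replicates 1, 2 and 3 (CPM, counts scaled to a common library size after TMM normalisation). In Nijisseiki the values were 3863, 2552 and 3212 CPM, and in SuCui NO.1 5390, 4264 and 2462 CPM. CuiYu held the highest levels, at 7136, 5204 and 4480.1 CPM. All 3 CuiYu libraries thus lay above all Akibae and all Nijisseiki libraries, while SuCui NO.1 overlapped every other variety. The lowest and highest libraries differed 3.37-fold. Gene30075 took 0.222% to 0.677% of all counts of a library.

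The level of gene1298 was ordered differently. Replicates 1, 2 and 3 of Akibae stood at 2456, 1265 and 1928 CPM, and the Nijisseiki libraries at 3131, 1935 and 2415 CPM. The SuCui NO.1 libraries had 1941, 1900 and 834 CPM, and the CuiYu libraries 3856, 2771 and 2586 CPM. CuiYu again lay highest, above all libraries of Akibae and SuCui NO.1, but it overlapped Nijisseiki, whose replicate 1 reached 3131 CPM. The lowest library was SuCui NO.1 replicate 3, and the range over libraries was 4.62-fold. Gene1298 took 0.0882% to 0.366% of the counts, and both genes together took 0.348% to 1.04%.

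**Figure D2:**
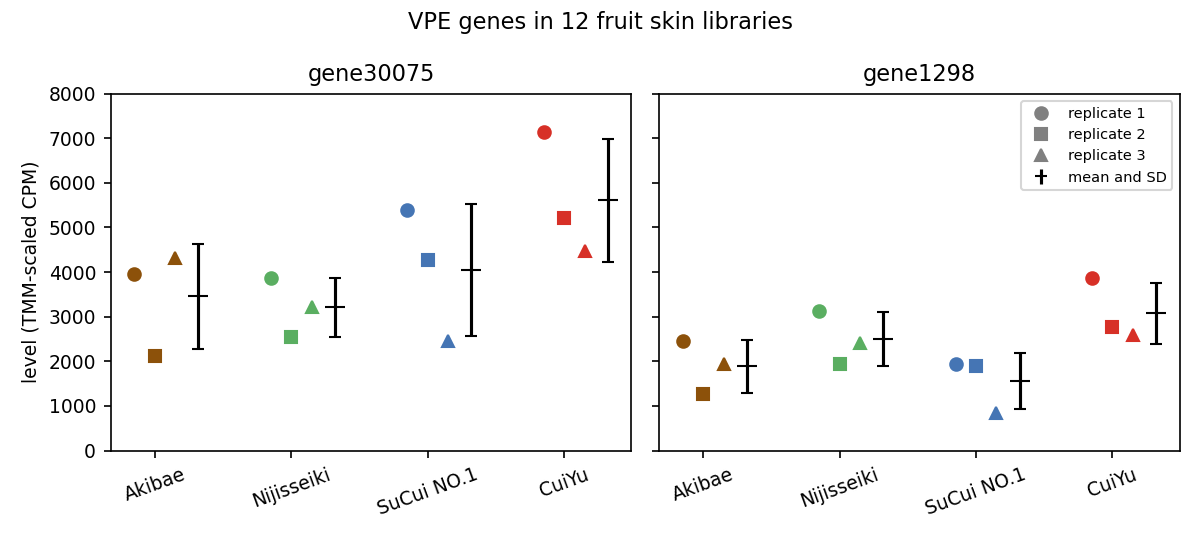
TMM-scaled CPM of gene30075 (left) and gene1298 (right) in each of the 12 libraries, by variety, with the mean and SD of 3 libraries beside the points. CuiYu has the highest mean in both panels, 5606 and 3071 CPM, while SuCui NO.1 is second for gene30075 at 4039 CPM and lowest for gene1298 at 1558 CPM.

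By mean level gene30075 ran from CuiYu (5606 ± 1373 CPM, SD, n = 3) through SuCui NO.1 (4039 ± 1477) and Akibae (3460.3 ± 1176) to Nijisseiki (3209 ± 655). For gene1298 the order was CuiYu (3071 ± 686), Nijisseiki (2494 ± 602), Akibae (1883 ± 597) and SuCui NO.1 (1558 ± 627). Neighbours in either order differed by less than the SD of at least 1 of the varieties, with the exceptions of CuiYu and SuCui NO.1 for gene30075 and of Nijisseiki and Akibae for gene1298. In both exceptions the means differed by more than either SD although the libraries overlapped. By FPKM, gene30075 had the rank 12 among all 43732 genes on the mean over libraries, and gene1298 the rank 21. In single libraries gene30075 ranked from 9 to 23. Gene1298 ranked from 15, in Nijisseiki replicate 1, to 111, in SuCui NO.1 replicate 3.

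Neither VPE gene passed the test between any 2 varieties. Of 12 tests with edgeR's quasi-likelihood F-test, Benjamini-Hochberg adjusted over all 26307 genes tested, 0 passed the threshold of 0.05, 1 had an unadjusted p under 0.05, and 1 passed with DESeq2. Over all genes, 2.53% were called in Akibae against Nijisseiki, 16.3% in Akibae against SuCui NO.1 and 15.1% in Akibae against CuiYu. The share was 12.4% in Nijisseiki against SuCui NO.1, 15.4% in Nijisseiki against CuiYu and 17.4% in SuCui NO.1 against CuiYu. In the test of any difference among the 4 varieties, which called 28.3% of genes, adjusted p was 0.309 for gene30075 and 0.196 for gene1298. These p values do not show that the levels were alike, and the intervals below give the differences that the fit allows.

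The difference nearest to the threshold was that of gene1298 between SuCui NO.1 and CuiYu, the varieties of equal harvest day. The level was lower in SuCui NO.1 by a log2 difference of -0.98 ± 0.38 (SE), or 1.97-fold higher in CuiYu, with a 95% interval of -1.82 to -0.14 that carries no correction for the number of genes. The libraries did not overlap, which held for 39.1% of all genes in this pair. Adjusted p was 0.101 with edgeR and 0.0381 with DESeq2, and it ran from 0.0881 to 0.268 when 1 library was left out. For gene30075 the same pair gave -0.47 ± 0.38 (adjusted p = 0.421, edgeR), with an interval of -1.32 to 0.37 and libraries that overlapped. The cuticle markers, at 214 to 411 CPM in SuCui NO.1 and 764 to 790 in CuiYu, also did not overlap in this pair. Nor did the seed markers, at 8.32 to 59.7 CPM in SuCui NO.1 and 60.6 to 177 in CuiYu, or, in the opposite direction, the phloem markers, at 1.004 to 8.54 and 0.147 to 0.376 CPM.

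Both genes were lower in Akibae than in CuiYu in all libraries, as were 43.4% of genes in one direction or the other. The log2 differences were almost equal, at -0.70 ± 0.39 for gene30075 and -0.71 ± 0.38 for gene1298 (SE), which are 1.62-fold and 1.63-fold higher means in CuiYu. Adjusted p was 0.257 and 0.245 with edgeR. Against CuiYu, Nijisseiki was lower by -0.80 ± 0.39 in gene30075 (adjusted p = 0.185, edgeR), again without overlap, which held for 39.7% of genes, and by -0.30 ± 0.38 in gene1298 (adjusted p = 0.630), with overlap. Nijisseiki and SuCui NO.1 differed in opposite directions in the genes, by -0.33 ± 0.38 in gene30075 and 0.68 ± 0.38 in gene1298 (Nijisseiki minus SuCui NO.1, adjusted p = 0.624 and 0.282, edgeR). Akibae differed from Nijisseiki by 0.11 ± 0.38 and -0.40 ± 0.38, and from SuCui NO.1 by -0.22 ± 0.38 and 0.27 ± 0.38, for gene30075 and gene1298 in turn (adjusted p = 0.950, 0.712, 0.739 and 0.671, edgeR). The 95% interval that reached farthest from 0 without leaving it out was that of gene30075 between Nijisseiki and CuiYu, from -1.66 to 0.05.

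**Figure D3:**
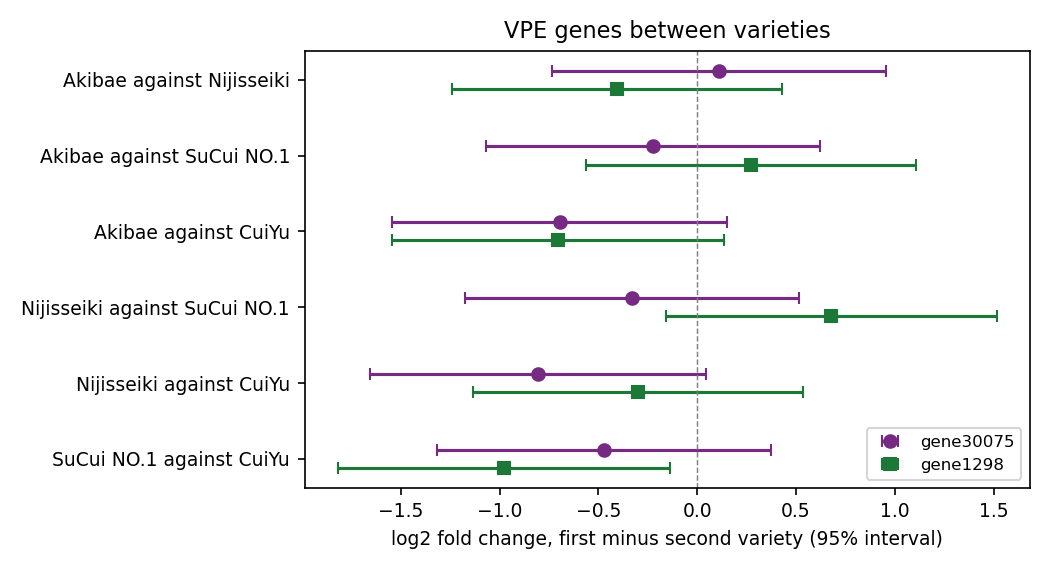
Log2 fold change (first minus second variety) of gene30075 (circles) and gene1298 (squares) for the 6 pairs of varieties, from edgeR, with 95% intervals that are not adjusted for the number of genes. Only the interval of gene1298 between SuCui NO.1 and CuiYu, -1.82 to -0.14, leaves out 0, and the genes have opposite signs in the 3 pairs Akibae against Nijisseiki, Akibae against SuCui NO.1 and Nijisseiki against SuCui NO.1.

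The ratio of the genes within a library differed between varieties. In FPKM, gene30075 over gene1298 gave 1.64, 1.70 and 2.27 for replicates 1, 2 and 3 of Akibae and 1.26, 1.34 and 1.35 for the Nijisseiki libraries. For SuCui NO.1 the ratios were 2.82, 2.28 and 3.002, and for CuiYu 1.88, 1.91 and 1.76. Nijisseiki was thus nearest to equal levels, all SuCui NO.1 libraries lay above all others, and Akibae and CuiYu overlapped. The mean log2 ratio was highest in SuCui NO.1, at 1.43 ± 0.21, equal in Akibae (0.89 ± 0.26) and CuiYu (0.89 ± 0.06) at this precision, and lowest in Nijisseiki, at 0.40 ± 0.06 (SD, n = 3 each). These are geometric means of 2.69, 1.85, 1.85 and 1.32 for the ratio itself.

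Variety accounted for 87.1% of the variance of the log2 ratio (F = 18.04), and an exact permutation test over all 369600 assignments of libraries to varieties gave p = 0.00117 (one-sided in F, n = 3 each). The scaling of the libraries cancels in this ratio. With any 1 library left out the exact p was 0.000195 to 0.00325, the latter without Nijisseiki replicate 1. In 5 of the 6 pairs of varieties the libraries did not overlap, where 3 against 3 libraries cannot give an exact permutation p below 0.1, or 0.12 adjusted over the 6 pairs. By level, libraries did not overlap in 39.7% of single genes in Nijisseiki against CuiYu and 39.1% in SuCui NO.1 against CuiYu. The share for ratios of other genes was not computed, so the ratio cannot be called particular to this pair of genes. In Akibae against SuCui NO.1 the gap was narrow, from a ratio of 2.27 in Akibae replicate 3 to 2.28 in SuCui NO.1 replicate 2. SuCui NO.1 and CuiYu, of equal harvest day, differed by 0.54 on the log2 scale. Reads assigned to the wrong copy of the pair could alter this ratio in a variety, and that was not tested.

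**Figure D4:**
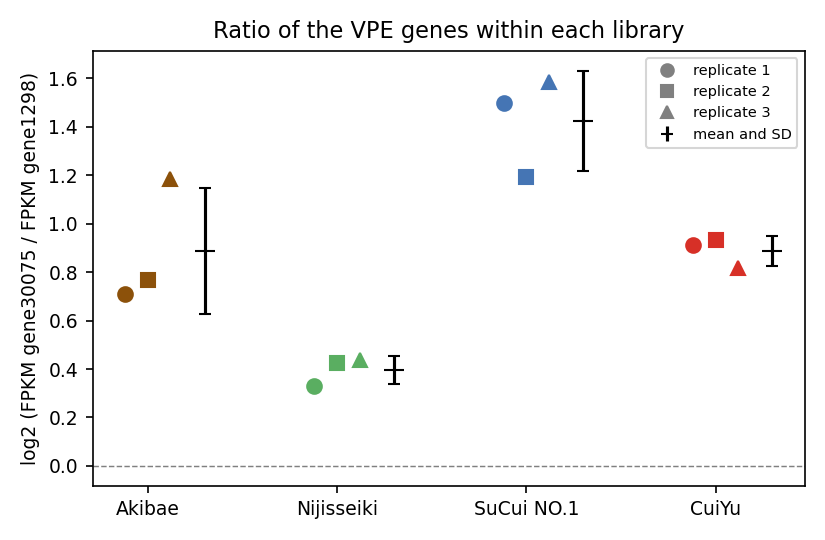
Log2 ratio of the FPKM of gene30075 to that of gene1298 in each of the 12 libraries, with the mean and SD of 3 libraries per variety; the dashed line marks equal levels. All libraries lie above 0, the Nijisseiki libraries lowest at a mean of 0.40 and the SuCui NO.1 libraries highest at 1.43.

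In 11 of 12 libraries both VPE genes deviated from the mean of their variety in the same direction, the exception being Nijisseiki replicate 3, where the deviations were 0.02 and -0.02 on the log2 scale. This was not particular to the pair: gene8550, a metallothionein and the most abundant gene of the table, deviated in the direction of gene30075 in 10 of 12 libraries and in that of gene1298 in 11. Akibae replicate 2 was lowest of its variety in both genes, with deviations of -0.64 and -0.52, and so was SuCui NO.1 replicate 3, with -0.64 and -0.80. The deviations share the scaling of the library, and those of a variety sum to 0. The pooled SD within varieties was 0.46 for gene30075 and 0.48 for gene1298 on the log2 scale, against a median of 0.35 over the 500 most abundant genes, of which 343 and 359 varied less. The SD of their log2 ratio within a variety was 0.06 to 0.26, smaller than the SD of either gene in that variety, which was 0.30 to 0.69.

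Among proteases of the vacuole and the secretory pathway, the VPE pair headed the order of levels per length. Over 131 genes named as VPEs, papain-type cysteine proteases, vacuolar aspartic proteases or serine carboxypeptidases, gene30075 had the highest FPKM in 12 of 12 libraries. Gene1298 had rank 2 in 8 libraries, rank 3 in Akibae replicate 2 and rank 4 in all 3 of SuCui NO.1. Next on the mean came gene10973, an aleurain-like thiol protease of the vacuole, at 1074 FPKM, and gene6476, a probable RD21B, of a drought-induced papain type, at 1012 FPKM. The highest aspartic proteinase, gene11970, reached 309 FPKM and the highest serine carboxypeptidase, gene10340, 117 FPKM. The VPE pair held 28.7% to 49.7% of the summed FPKM of these 131 genes. By variety this share was 46.0 ± 3.18% in CuiYu, 40.9 ± 4.88% in Akibae, 40.7 ± 1.40% in Nijisseiki and 35.0 ± 5.47% in SuCui NO.1 (SD, n = 3 each). It was not tested, since the pair was chosen for its level.

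**Figure D5:**
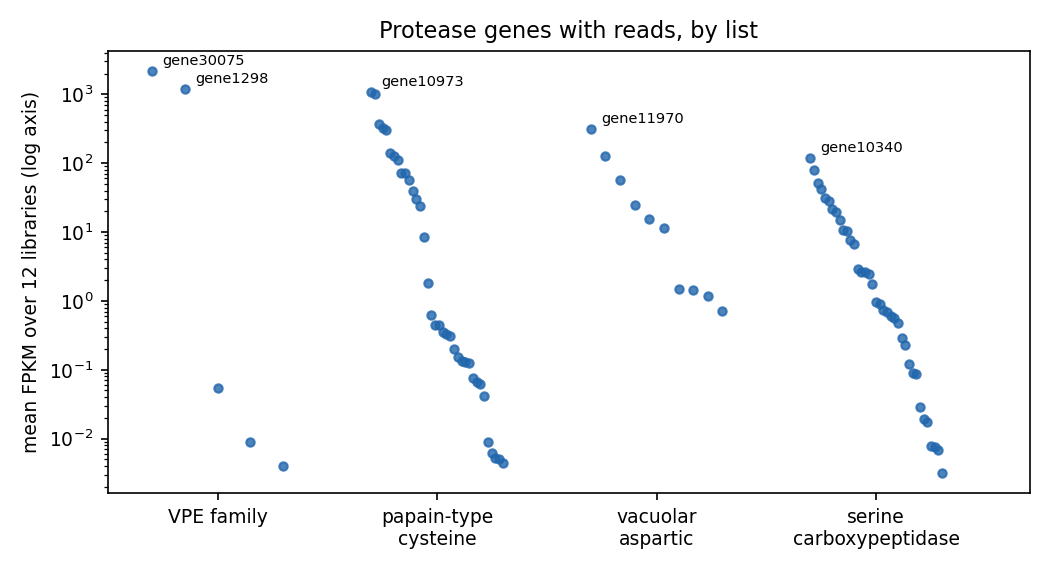
Mean FPKM over the 12 libraries (log axis) of every gene with reads in 4 protease lists, ordered within each list from high to low. The labelled VPE genes, at 2189 and 1188 FPKM, lie above the highest papain-type gene at 1074 FPKM, and the other VPE genes with reads lie below 0.1 FPKM.

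The genes around the VPE pair were described from 11 lists matched by name: relatives, proteases, inhibitors, death proteases, sorting receptors, substrates, the vacuolar membrane and autophagy. Of their 320 genes 184 were tested, and 50 passed the test over the 4 varieties (69 at an unadjusted p under 0.05, 71 with DESeq2), a share of 50 in 184 against 28.3% of all genes. In SuCui NO.1 against CuiYu 16 were higher in SuCui NO.1 and 13 lower, or 15.8% of those tested, where all genes gave 17.4%, of which 8.86% were higher and 8.58% lower in SuCui NO.1. This count of 29 fell to 18 without CuiYu replicate 2 and to 19 without CuiYu replicate 3. Both shares were near those of all genes. Values of single genes below are mean CPM ± SD (n = 3), and adjusted p values are edgeR's for the test over the 4 varieties unless a pair is named.

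Of 18 papain-type cysteine proteases tested, 4 passed over the 4 varieties, and between SuCui NO.1 and CuiYu 1 was higher in SuCui NO.1 and 0 lower (median log2 difference -0.02, against 0.06 over all genes; 5 at an unadjusted p under 0.05, 2 with DESeq2). The most abundant by CPM, gene6476 (RD21B, chromosome 8, 12654827 to 12658815), stood at 2613 ± 170 in CuiYu, 2343 ± 825 in SuCui NO.1, 1477 ± 438 in Nijisseiki and 1323 ± 416 in Akibae (adjusted p = 0.114, and 0.0417 without SuCui NO.1 replicate 3). Its order of varieties by mean places SuCui NO.1 second, as for gene30075, although its means in SuCui NO.1 and CuiYu differed by less than the SD of SuCui NO.1. Gene41988, named RD19A, on an unplaced scaffold, was highest in Nijisseiki at 68.0 ± 32.4, against 17.9 ± 2.76 in CuiYu (adjusted p = 0.00344). RD19-type proteases are vacuolar enzymes first described under drought in Arabidopsis.

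Of 10 vacuolar aspartic proteases tested, 3 passed over the 4 varieties, and between SuCui NO.1 and CuiYu 2 were higher in SuCui NO.1 and 0 lower (median log2 difference 0.07). Gene11970 (Aspartic proteinase A1, chromosome 3, 5828159 to 5832556) stood at 807 ± 83.4 in CuiYu, 701 ± 344 in SuCui NO.1, 449.8 ± 64.1 in Nijisseiki and 382 ± 52.8 in Akibae (adjusted p = 0.0559, and 0.00915 without SuCui NO.1 replicate 3). By pairs it was called in Akibae against CuiYu alone, where 15.1% of all genes were. Its log2 difference there was -1.08 ± 0.31 (SE, adjusted p = 0.0411, edgeR). Gene11024 (chromosome 16, 3673773 to 3675838) was a far scarcer relative, at 5.9995 ± 5.92 in Nijisseiki and 0.121 ± 0.0395 in CuiYu (adjusted p = 0.00204). Of 26 serine carboxypeptidases, 8 passed over the 4 varieties, and between SuCui NO.1 and CuiYu 2 were higher and 3 lower in SuCui NO.1 (median -0.06). Gene10340 (Serine carboxypeptidase 1, chromosome 5, 12410797 to 12414379) was lowest in SuCui NO.1, at 148 ± 14.98 against 233 ± 8.69 in CuiYu (adjusted p = 0.0122 for this pair). Gene27333 (Serine carboxypeptidase-like 27, chromosome 7, 13781602 to 13787261) was highest there, at 98.1 ± 20.9 against 13.7 ± 4.56 (adjusted p = 0.00078 for this pair).

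Inhibitors of cysteine proteases include cystatins, of which forms with an extended C-terminus block legumains in barley and Arabidopsis. The list of protease inhibitors also holds Glu S.griseus protease inhibitors and serpins, which are most of its 36 genes. Its counts are therefore not counts of cystatins. Of 12 protease inhibitor genes tested, 3 passed over the 4 varieties, and between SuCui NO.1 and CuiYu 3 were higher in SuCui NO.1 and 0 lower (median log2 difference 0.15; 6 at an unadjusted p under 0.05, 3 with DESeq2). The most abundant, gene12647 (Cysteine proteinase inhibitor 6, chromosome 7, 2472737 to 2475356), stood at 433 ± 59.6 in SuCui NO.1, 366 ± 30.5 in Akibae, 363 ± 81.2 in CuiYu and 311 ± 43.2 in Nijisseiki (adjusted p = 0.319). Its mean FPKM of 545 lies below that of either VPE gene. Gene20133 (Cysteine proteinase inhibitor B, chromosome 4, 20601288 to 20601959) had 0 reads in CuiYu, which allows up to 0.0709 CPM over its 3 libraries. It stood at 18.3 ± 13.9 in Nijisseiki, 14.1 ± 3.81 in Akibae and 2.32 ± 1.62 in SuCui NO.1 (adjusted p = 0.00116).

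Metacaspases are another family of cysteine proteases that act in plant cell death. Of 10 tested, 4 passed over the 4 varieties, and between SuCui NO.1 and CuiYu 1 was higher and 1 lower in SuCui NO.1 (median log2 difference 0.19). Gene13721 (Metacaspase-4, chromosome 5, 18109866 to 18112664) was the most abundant, at 432 ± 46.9 in CuiYu, 299 ± 48.2 in Nijisseiki, 289 ± 14.4 in Akibae and 183 ± 72.5 in SuCui NO.1. Its order of varieties by mean is that of gene1298, although its means in Nijisseiki and Akibae differed by less than either SD. Between SuCui NO.1 and CuiYu it was lower by a log2 difference of -1.24 ± 0.26 (SE, adjusted p = 0.00847, and at most 0.0357 with 1 library left out). Gene23655 (Metacaspase-1, chromosome 7, 5714563 to 5718181) went the other way, at 3.20 ± 0.979 in Akibae and 0.463 ± 0.195 in CuiYu (adjusted p = 0.00975). It is the member called higher in SuCui NO.1 than in CuiYu, by a log2 difference of 1.83 ± 0.51 (SE, adjusted p = 0.0321). That call was lost in a fit of these varieties alone (0.0526) and without SuCui NO.1 replicate 1 or 3 or any 1 CuiYu library (up to 0.108).

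Vacuolar-sorting receptors carry soluble cargo from the Golgi to the vacuole. Most of the 16 genes in this list are named receptor homology region, transmembrane domain- and RING domain-containing proteins, and the rest Vacuolar-sorting receptors. Of 14 sorting receptors tested, 3 passed over the 4 varieties, and between SuCui NO.1 and CuiYu 0 were higher and 1 lower in SuCui NO.1 (median log2 difference -0.04; 5 at an unadjusted p under 0.05, 4 with DESeq2). That gene was gene40159 (Vacuolar-sorting receptor 1, chromosome 10, 9158776 to 9165048), at 47.3 ± 9.05 in Nijisseiki, 40.3 ± 2.41 in Akibae, 23.3 ± 2.36 in CuiYu and 10.2 ± 1.78 in SuCui NO.1 (adjusted p = 9.5e-05). The most abundant receptor, gene13677 (Vacuolar-sorting receptor 6, chromosome 5, 17711198 to 17715898), stood at 38.6 to 61.3 CPM by variety mean (adjusted p = 0.37).

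Seed storage proteins, a class that includes the best known VPE substrates, were mostly scarce. Of 15 genes in this list, matched by name and not by known cutting, 2 passed the filter on low counts. Of these, 0 passed the test over the 4 varieties (0 at an unadjusted p under 0.05, 1 with DESeq2). The higher of them, gene8494 (Basic 7S globulin, chromosome 11, 30466433 to 30467882), stood at 1.47 to 24.2 CPM by variety mean and reached 47.0 CPM in 1 SuCui NO.1 library and 42.2 CPM in 1 Nijisseiki library (adjusted p = 0.163, and 0.0197 without Nijisseiki replicate 1). Whether its product is a VPE substrate was not tested. Acid invertases split sucrose in the vacuole. Of 3 such genes tested, 2 passed over the 4 varieties, and between SuCui NO.1 and CuiYu 1 was higher and 1 lower in SuCui NO.1 (median log2 difference 0.72). Gene35715 stood at 7.38 ± 3.99 in CuiYu and at 0.491 ± 0.484 or less in the other varieties (adjusted p = 0.00105). Gene22918 (Beta-fructofuranosidase, soluble isoenzyme I, chromosome 1, 3672595 to 3676910) was lowest in CuiYu, at 0.285 ± 0.235, and highest in SuCui NO.1, at 4.22 ± 3.03 (adjusted p = 0.0163, and not called without CuiYu replicate 2 or 3, up to 0.0568). The only relative with a C13 domain outside the family, the GPI-anchor transamidase gene21019 (chromosome 4, 519547 to 523191), stood at 18.0 to 22.2 CPM by variety mean (adjusted p = 0.638).

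Proton pumps of the vacuolar membrane make the acid in which VPEs mature. Of 45 pump genes tested, 13 passed over the 4 varieties, and between SuCui NO.1 and CuiYu 0 were higher and 4 lower in SuCui NO.1 (15 at an unadjusted p under 0.05, 10 with DESeq2), with a median log2 difference of 0.10 against 0.06 over all genes. The most abundant, gene29379 (V-type proton ATPase subunit E, chromosome 14, 13328053 to 13330534), stood at 1499.9 ± 251 in CuiYu, 1218 ± 245 in Nijisseiki, 807 ± 265 in Akibae and 692 ± 280 in SuCui NO.1 (adjusted p = 0.0861, and 0.0188 with DESeq2). Gene35515 (V-type proton ATPase subunit e1, chromosome 11, 21014767 to 21016998) was lowest in Akibae, at 3.49 ± 0.488, and highest in SuCui NO.1, at 18.7 ± 4.09 (adjusted p = 8.9e-05).

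Autophagy delivers cell contents to the vacuole. Of 43 autophagy genes tested, 10 passed over the 4 varieties, and between SuCui NO.1 and CuiYu 6 were higher and 3 lower in SuCui NO.1 (median log2 difference 0.08). Gene9576 (Autophagy-related protein 18g, chromosome 3, 4879880 to 4887563) was read at 33.1 ± 7.11 in CuiYu and 28.1 ± 10.9 in Akibae, against 0.207 ± 0.119 in SuCui NO.1 and 0.105 ± 0.0922 in Nijisseiki (adjusted p = 7.6e-06). The most abundant, gene11953 (Autophagy-related protein 8C, chromosome 3, 5707047 to 5710017), stood at 135 to 169 CPM by variety mean (adjusted p = 0.316).

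The genes most like each VPE gene were found by the root mean square difference of log2 CPM, centred per gene, over the 12 libraries, among 18490 named genes whose mean reached 1 CPM. Nearest to gene1298 was gene29379, the V-type proton ATPase subunit E described above, at 0.23. Next came gene16372 (Binding partner of ACD11 1, chromosome 12, 517946 to 522350) at 0.24 and gene20188 (Tobamovirus multiplication protein 2A, chromosome 6, 2103136 to 2109406) at 0.25. All 3 had the order of varieties of gene1298 in mean CPM: CuiYu, Nijisseiki, Akibae, SuCui NO.1. They were chosen by likeness over these same libraries, so a like order follows largely from the choice.

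Nearest to gene30075 was gene17016 (Mediator of RNA polymerase II transcription subunit 15a, chromosome 17, 4643824 to 4652947), at 0.18. It was followed by gene13694 (Plasma membrane-associated cation-binding protein 1, chromosome 5, 17868682 to 17870438) and gene4413 (Ankyrin repeat-containing protein At2g01680, chromosome 16, 410014 to 413162), both at 0.23. Of these, gene17016 had the order of varieties of gene30075, which again follows largely from the choice by likeness. The lowest mean of gene13694 and of gene4413 was in Akibae and not in Nijisseiki. The VPE genes themselves differed by 0.39, against a median of 0.73 from gene30075 and 0.78 from gene1298 over all candidates. A gene that did not vary over the libraries would differ by 0.49 from gene30075 and by 0.56 from gene1298. In the order of likeness gene1298 held place 646 for gene30075, and gene30075 held place 143 for gene1298.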

How the data were processed

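Total RNA of fruit skin was extracted with CTAB and made into libraries with an NEB Next Ultra kit, per the labels' protocols. The authors deposited 1 table with raw read counts per gene and FPKM values, per the file headers. The FPKM values imply a library total of 0.92 to 1.11 times the sum of a library's counts. They were therefore not scaled by that sum alone, and the headers do not describe their scaling. Aligner, counter, strand setting, build and annotation were steps not given in the sources used here. The table left 0 columns without a sample. The count test was edgeR 4.0.16 (R 4.3.3): filterByExpr kept 26307 genes, TMM scaled the libraries, and glmQLFit fitted 1 mean per variety to all 12 libraries without a block. DESeq2 1.42.0 was an alternative. The FPKM ratio was tested by exact permutation, and FPKM served for levels between genes.

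The members and lists were chosen with earlier results of these data known. In each list the gene of highest mean CPM and, at a mean of at least 1 CPM, that of lowest p over the 4 varieties were named, and for likeness the 3 nearest genes. Other genes given by level alone were chosen after their values were seen. After values were seen, the pattern for papain-type proteases was corrected, since it had missed names spelled protease, and a few names outside their lists were removed. No sequence of these genes was at hand, so none is shown. Same-numbered libraries deviated together between Nijisseiki and SuCui NO.1, with correlations of 0.196 to 0.369 over genes, all over 0.1, although the labels name nothing they share. In SuCui NO.1 against CuiYu 2 of 3 such correlations were over 0.1, with a range of -0.028 to 0.199. In each of the remaining pairs of varieties 0 of 3 were. Libraries of unlike number reached up to 0.226, in Akibae against SuCui NO.1.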

Additional observations from a re-analysis of the deposited data

How the results depend on the processing

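No call of gene30075 or gene1298 between varieties was made or lost under another scaling, another filter, a fit of 2 varieties alone, the replicate block or with 1 library left out, and the exception was DESeq2, which called gene1298 between SuCui NO.1 and CuiYu (log2 difference -0.98, adjusted p = 0.0381). With 1 library left out, the sign of differences near 0 turned: gene30075 ran from -0.093 to 0.37 in Akibae against Nijisseiki (below 0 without Akibae replicate 3 or Nijisseiki replicate 2), and from -0.50 to 0.033 in Akibae against SuCui NO.1 (above 0 without Akibae replicate 2 or SuCui NO.1 replicate 1). Gene1298 ran from -0.044 to 0.49 in Akibae against SuCui NO.1 (the lowest without SuCui NO.1 replicate 3). The ratio of the genes kept its side of the threshold, with 84.2% to 94.1% of variance between varieties with 1 library left out, and an exact permutation within replicate numbers, the replicate block, gave p = 0.00694. Ranked by raw count, the median rank of gene30075 over libraries was 6.5 instead of 12.5.

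Counts of called genes in the related lists moved more. With DESeq2 they were 7 in Akibae against Nijisseiki, 48 in Akibae against SuCui NO.1 and 35 in Akibae against CuiYu, where edgeR gave 3, 30 and 22. Fitted on the pair alone they were 1 in Akibae against Nijisseiki, 41 in Akibae against CuiYu and 5 in Nijisseiki against SuCui NO.1, where the shared fit gave 25 for the last. With 1 library left out they ran from 1 to 5 in Akibae against Nijisseiki, 13 to 39 in Akibae against SuCui NO.1, 12 to 30 in Akibae against CuiYu, 12 to 37 in Nijisseiki against SuCui NO.1, 12 to 32 in Nijisseiki against CuiYu and 18 to 38 in SuCui NO.1 against CuiYu. Over all genes, Akibae against Nijisseiki gave 665 calls, 1650 with DESeq2 and 213 on the pair alone. Akibae against CuiYu gave 3968, and 6360 on the pair alone. Nijisseiki against SuCui NO.1 gave 3270, 5076 with DESeq2 and 1222 on the pair alone, and Nijisseiki against CuiYu gave 4050, and 6209 with DESeq2. The causes were not tested.

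The replicate block took gene11970 past the threshold over the 4 varieties (adjusted p = 0.036) and gene22918 out of it (0.0514). In Nijisseiki against SuCui NO.1, the pair whose same-numbered libraries deviated together, a fit of these varieties alone with the replicate block, added after the data were seen, gave -0.28 ± 0.47 for gene30075 (adjusted p = 0.764) and 0.75 ± 0.45 for gene1298 (adjusted p = 0.371). It called 11 genes of the related lists and 1307 of all genes. The block over all 12 libraries changed no call of either VPE gene. Of 12 libraries, 6 deviated most like their own number. With 3 numbers some libraries do so by chance, and this count was not tested against that. It comes from the data and not from the design. Over the 4 varieties the call of gene10340 ended without SuCui NO.1 replicate 1 (0.0514), and that of gene13721 without SuCui NO.1 replicate 3 or CuiYu replicate 1 or 2 (up to 0.0743). The VPE genes had 11631 to 102513 reads per library, and the 6 scarce genes 16 reads in all, where 0 reads over the 12 libraries allows up to 0.0188 CPM.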
